A study of Rattus norvegicus with 15 samples.

Results

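The genes described are ubiquitin ligases and substrate adaptors, chosen by symbol from the probe sets that carry 1 gene symbol: those beginning with Fbxo, Fbxl, Fbxw, Trim, Rnf or Asb followed by a digit, with Nedd4, Nedd4l, Cblb and Stub1 added. Fbxo32 and Trim63, the muscle atrophy ligases atrogin-1 and MuRF1, were left out by the rule. This gave 170 genes of 14217 and 250 probe sets of 31042. F-box genes numbered 52 (75 probe sets), Asb genes 12 (16), Trim genes 34 (46), Rnf genes 68 (104), and the 4 added genes had 9 probe sets. The choice was made by symbol and not by measured value, though earlier results of these data were known. RNA of the gastrocnemius, a calf muscle made mostly of fast fibres, was measured with 1 array for each of 15 male Wistar rats bought at 3.5 weeks of age, to find what a low-protein diet after weaning does to the muscle and what remains after later feeding. CN (n = 4) ate a diet with 15% casein for 4 weeks and LP (n = 4) a calorie-matched diet with 8% casein. CN-R (n = 3) and LP-R (n = 4) followed the same diets for those weeks and were sampled on day 84. The study's methods return CN-R and LP-R to 15% casein for the remaining 8 weeks, whereas the labels keep each group on its earlier diet. All rats were fasted for 16 h before sampling, and rats near their group's mean body weight were chosen for the arrays. CN-R replicate 4 is a control in its title and a restricted rat in its treatment field, and it was kept in CN-R. CN-R replicate 3 was not analysed here.

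Ubiquitin ligases choose the proteins that are tagged with ubiquitin, most often for destruction by the proteasome. F-box proteins are the substrate-binding subunits of SCF ligases, which are built on the scaffold cullin 1, and Asb proteins, with ankyrin repeats and a SOCS box, do the same on cullin 5. Most Trim and Rnf proteins carry their own RING domain, which brings the ubiquitin-conjugating enzyme to the substrate (Trim16 lacks one), and Nedd4 and Nedd4l are HECT ligases, which take ubiquitin onto themselves first. In skeletal muscle, members of these families control the turnover of sarcomere proteins, membrane receptors and mitochondria.

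The values are log2 signals, and the defining genes of skeletal muscle were among the brightest on every array: for 12 of 18 probe sets the lowest array stood at or above percentile 99.7 of all signals, and the dimmest, a probe set of Myh1, at 86.34. Within each array set, any pair of arrays correlated across its probe sets, which are no replicates, with a Pearson's r of 0.997 to 0.999. The authors' summarization holds a probe set nearly constant where its probes do not vary together, so a probe set was called varying when its SD over the arrays of a comparison was over 0.01. Of 31042 probe sets, 12.8% varied over CN and LP and 9.99% over CN-R and LP-R. The early arrays (CN, LP) and the late arrays (CN-R, LP-R) were summarized apart, and levels were compared only within each set. Of the member probe sets, 205 were nearly constant in both sets, none of them spanning more than 0.0122 within a set, so that 134 of the 170 genes gave no comparison.

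The promoters of Asb5, Trim54, Trim16 and Fbxl4 are shown as examples. Rnf122, which was called and did not overlap in LP, had no promoter entry. The other called or separated genes are not shown. Both probe sets of Asb5 were called in LP-R, the groups did not overlap for Trim54 in LP and for Trim16 in LP-R, and both varying probe sets of Fbxl4 were called in LP. Each window holds 250 bases before and 50 after the gene's start in RefSeq's annotation of GRCr8, printed 5′ to 3′ on the gene's strand. Capitals mark the E-box CAGCTG, a binding sequence of the myogenic factors that reads the same on both strands.
Asb5 (chr16:44010388-44010687, minus strand): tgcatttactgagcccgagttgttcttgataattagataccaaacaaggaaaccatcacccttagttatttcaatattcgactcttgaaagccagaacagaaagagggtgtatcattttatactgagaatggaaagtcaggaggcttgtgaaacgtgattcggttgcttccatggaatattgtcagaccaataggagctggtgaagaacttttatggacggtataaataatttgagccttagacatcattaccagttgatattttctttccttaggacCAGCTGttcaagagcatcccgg
Trim54 (chr6:30978426-30978725, minus strand): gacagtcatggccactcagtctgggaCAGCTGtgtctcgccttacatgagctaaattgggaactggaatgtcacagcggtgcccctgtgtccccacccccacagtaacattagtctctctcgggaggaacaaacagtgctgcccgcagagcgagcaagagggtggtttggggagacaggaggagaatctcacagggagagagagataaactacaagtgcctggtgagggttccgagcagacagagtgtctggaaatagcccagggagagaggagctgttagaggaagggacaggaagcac
Trim16 (chr10:47985300-47985599, plus strand): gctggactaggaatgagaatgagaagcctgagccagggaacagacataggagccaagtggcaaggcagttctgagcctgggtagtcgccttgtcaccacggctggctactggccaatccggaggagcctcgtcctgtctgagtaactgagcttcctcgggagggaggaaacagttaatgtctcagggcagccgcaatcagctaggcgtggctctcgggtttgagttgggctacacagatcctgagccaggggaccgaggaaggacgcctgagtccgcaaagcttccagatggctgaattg
Fbxl4 (chr5:40752271-40752570, plus strand): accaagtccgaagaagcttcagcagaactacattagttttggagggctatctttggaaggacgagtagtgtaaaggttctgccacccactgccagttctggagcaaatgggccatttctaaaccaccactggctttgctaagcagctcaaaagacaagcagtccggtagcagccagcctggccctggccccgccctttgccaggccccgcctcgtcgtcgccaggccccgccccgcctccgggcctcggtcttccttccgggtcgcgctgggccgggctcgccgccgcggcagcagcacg
CAGCTG stood 28 bases after the start of Asb5 and 224 bases before that of Trim54. It was in the window of 27 of the 143 member genes with a promoter entry (18.9%) and of 15.1% of all 27457 promoters. Among the 30 member genes that varied in either array set and have an entry it was in 8 (Asb2, Asb5, Asb14, Rnf144a, Rnf217, Trim5, Trim47, Trim54). On either strand, the FoxO sequence TGTTTAC was in 4 of the 143 (2.8%, against 3.76% of all promoters), the amino acid response element TTGCATCA in 0 (against 0.74%) and the cAMP response element TGACGTCA in 5 (3.5%, against 1.91%), and none of these 3 was in the window of any varying member. A match describes the letters of a window and is not a bound site.

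Over CN and LP, 38 of the 250 ligase probe sets, of 32 genes, varied (15.2%, against 12.8% of all probe sets). Rank products estimate for each probe set the percentage of false positives (pfp, as a share of 1) among those ranked as high, and 8 had a pfp up to 0.05 and were called, 2 higher in LP (Rnf115 and Rnf122) and 6 lower (Nedd4, Nedd4l, Fbxo31, Trim54 and Fbxl4 with 2). That is 3.2% of the members, beside 3.27% of all probe sets called in either direction, 1.67% higher and 1.6% lower, so the share was near the background. Of the varying probe sets, 21.1% of the members were called and 25.6% of all. The largest of the 8 differences was that of Nedd4, 1.22-fold lower in LP. Over the 38, the median change was 0.01 on the log2 scale, beside 0.02 over all varying probe sets, and 20 means were higher in LP and 18 lower. By limma, 0 probe sets, members or not, passed an adjusted p of 0.05, and 8 of the 38 (21.1%) had an unadjusted p up to 0.05, beside 14.5% of all varying probe sets. The groups did not overlap for 2 of the 38, Rnf122 and Trim54 (5.26%, beside 7.9% of all varying probe sets). Rank products permute values across probe sets within an array, so a probe set with a wide spread between rats is called more readily. Run on the varying probe sets alone, they called 0 members. The share of all varying probe sets called under that setting is not given here, so this 0 is not set against a background. In whole muscle, fewer cells of a type and less RNA per cell cannot be told apart.

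**Figure D1:**
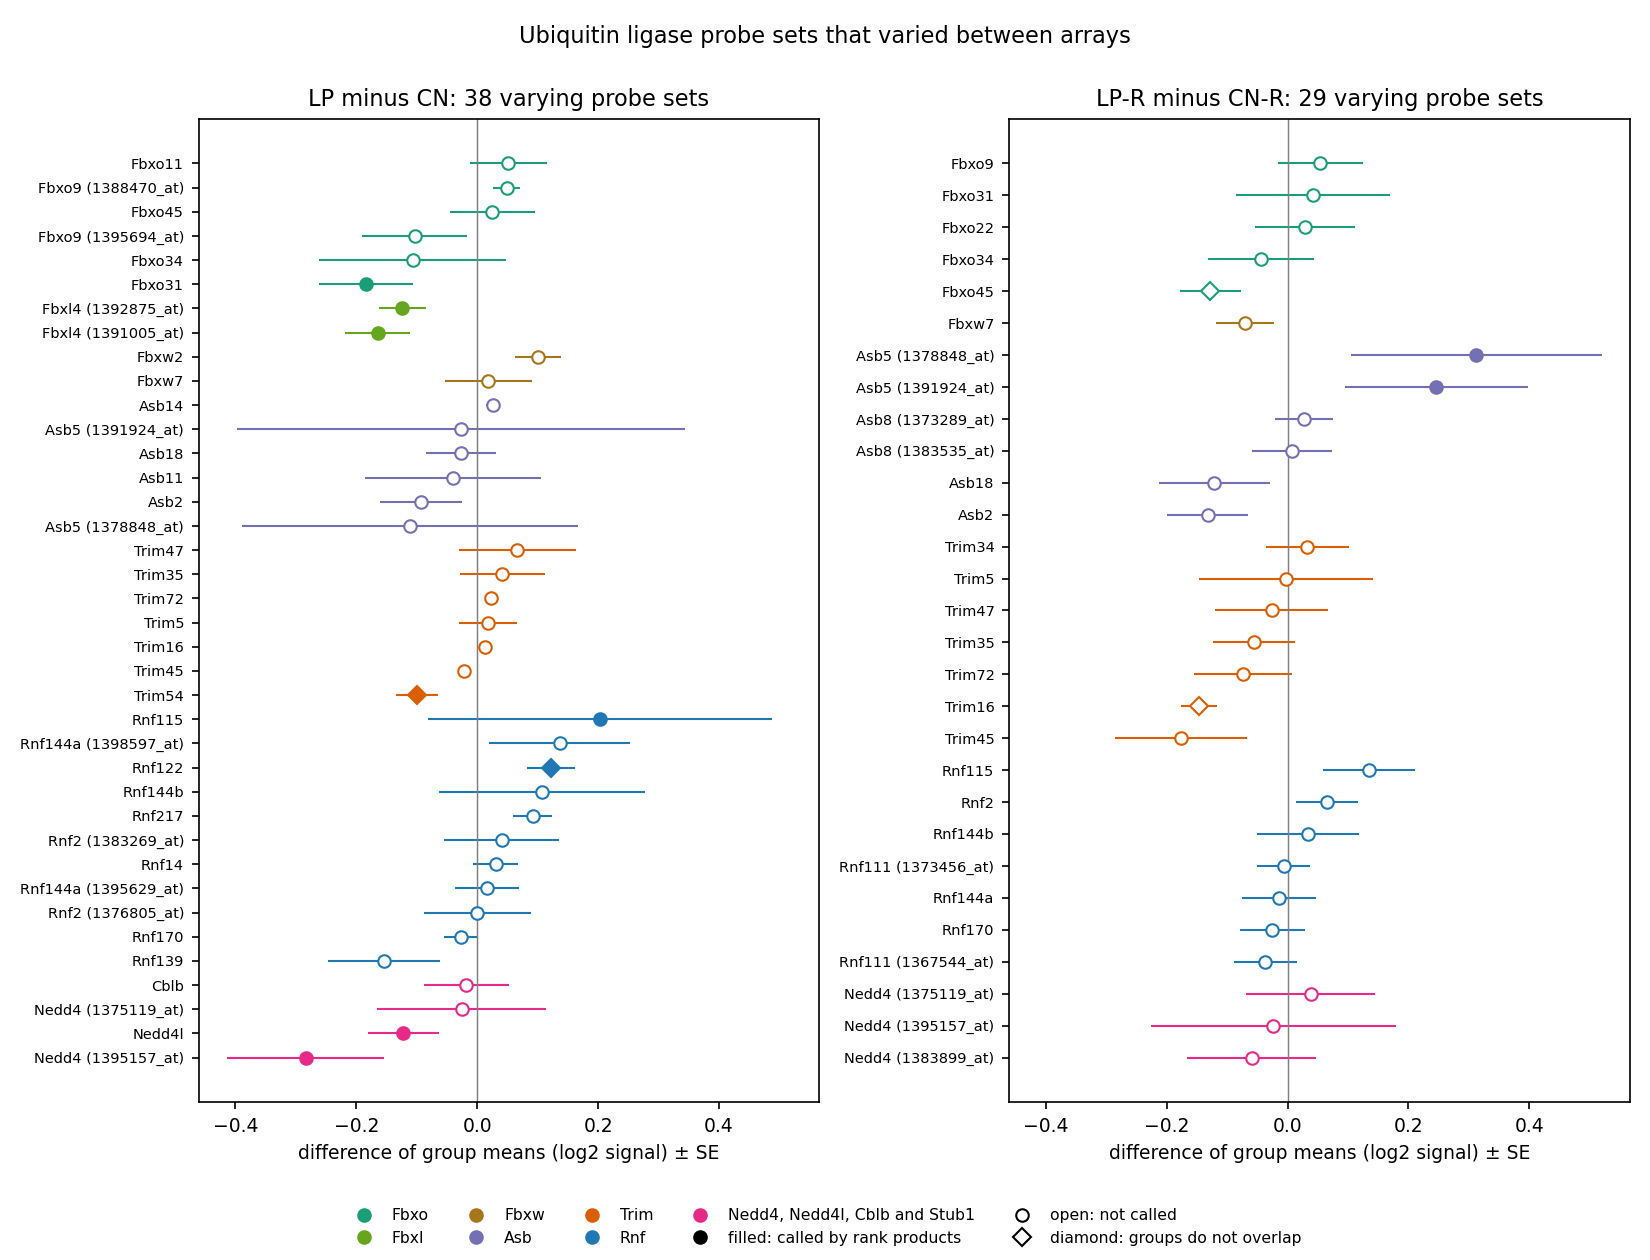
Each row is 1 varying ligase probe set, coloured by family, and the point gives the difference of group means in log2 signal with its SE, for LP minus CN (left, n = 4 and 4) and LP-R minus CN-R (right, n = 4 and 3). Filled points were called by rank products and diamonds mark groups without overlap. Most differences lie within 0.2 of 0, the bars of Rnf115 and Asb5 are the widest in LP minus CN, and Trim54, Rnf122, Trim16 and Fbxo45 are the diamonds.

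Among the F-box genes, 10 of 75 probe sets varied (12.8% of all), 3 were called lower and 0 higher (1.6% and 1.67% of all). The 3 come from 2 genes, Fbxl4 and Fbxo31. Fbxl4, a mitochondrial F-box protein that restrains the clearance of mitochondria, had 2 varying probe sets, and they moved alike. Its probe set 1391005_at read 9.95, 9.85, 9.89 and 9.94 in CN 1 to 4 and 9.63, 9.87, 9.73 and 9.75 in LP 1 to 4, a change of -0.16 (SE 0.05; pfp 0.022; exact permutation p = 0.0571, two-sided). LP 2 alone reached the range of CN. Its probe set 1392875_at read 8.13, 8.08, 8.14 and 8.20 in CN and 7.95, 8.09, 7.99 and 8.03 in LP, a change of -0.12 (SE 0.04; pfp 0.036; exact p = 0.0571). Again LP 2 was the single array within the range of CN, and the same rats gave both probe sets, so they are not independent. Both calls were lost when any 1 of CN 1, CN 3, CN 4, LP 1, LP 3 or LP 4 was left out, and over the 8 arrays left out in turn the changes ran from -0.21 to -0.13 for the first and from -0.15 to -0.10 for the second. Ranges beside lost calls below are likewise over all arrays left out in turn.

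Fbxo31, the SCF subunit that takes cyclin D1 for destruction, read 9.86, 9.58, 9.67 and 9.83 in CN and 9.49, 9.56, 9.49 and 9.67 in LP. The groups overlapped through CN 2, which lay below LP 4. The change was -0.18 (SE 0.08; pfp 0.014; exact p = 0.0571), and the call was lost without CN 1, CN 4 or LP 3, with changes of -0.23 to -0.14 over the arrays left out. Fbxo9, which acts on regulators of mTOR complexes, had 2 varying probe sets that moved apart, by 0.05 (SE 0.02) and -0.10 (SE 0.09), neither called. Fbxw2 was just outside, with a change of 0.10 (SE 0.04; pfp 0.052; exact p = 0.0571). Fbxw7, which takes cyclin E and Myc, changed by 0.02 (SE 0.07), and Fbxo11, Fbxo34 and Fbxo45 by -0.11 to 0.05, none called. Fbxo21, Fbxo30 and Fbxl22 were nearly constant in both array sets, and Fbxo40 had no probe set of its own.

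In the Asb family, 6 of 16 probe sets varied (37.5%, beside 12.8% of all), and 0 were called between LP and CN. Asb2, which takes filamins in muscle, ran from 11.44 to 11.61 in CN and from 11.28 to 11.57 in LP, a change of -0.09 (SE 0.07). Asb5, a muscle-rich member, spread far wider: probe set 1391924_at read 9.73, 10.52, 10.95 and 10.73 in CN and 9.80, 10.28, 10.89 and 10.85 in LP. Replicate 1 was the lowest array in both groups, and the ranges of the groups nearly coincided. The change was -0.03 (SE 0.37), and the other probe set, 1378848_at, gave -0.11 (SE 0.28; pfp 0.055). Without CN 1 the changes were -0.28 and -0.32 and both probe sets were called lower, and without LP 4 the second was (-0.25), so the absence of a call for Asb5 rested on single arrays. Asb11 changed by -0.04 (SE 0.15), Asb14 by 0.03 (SE 0.01) and Asb18 by -0.03 (SE 0.06). Asb15 had no probe set of its own.

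**Figure D2:**
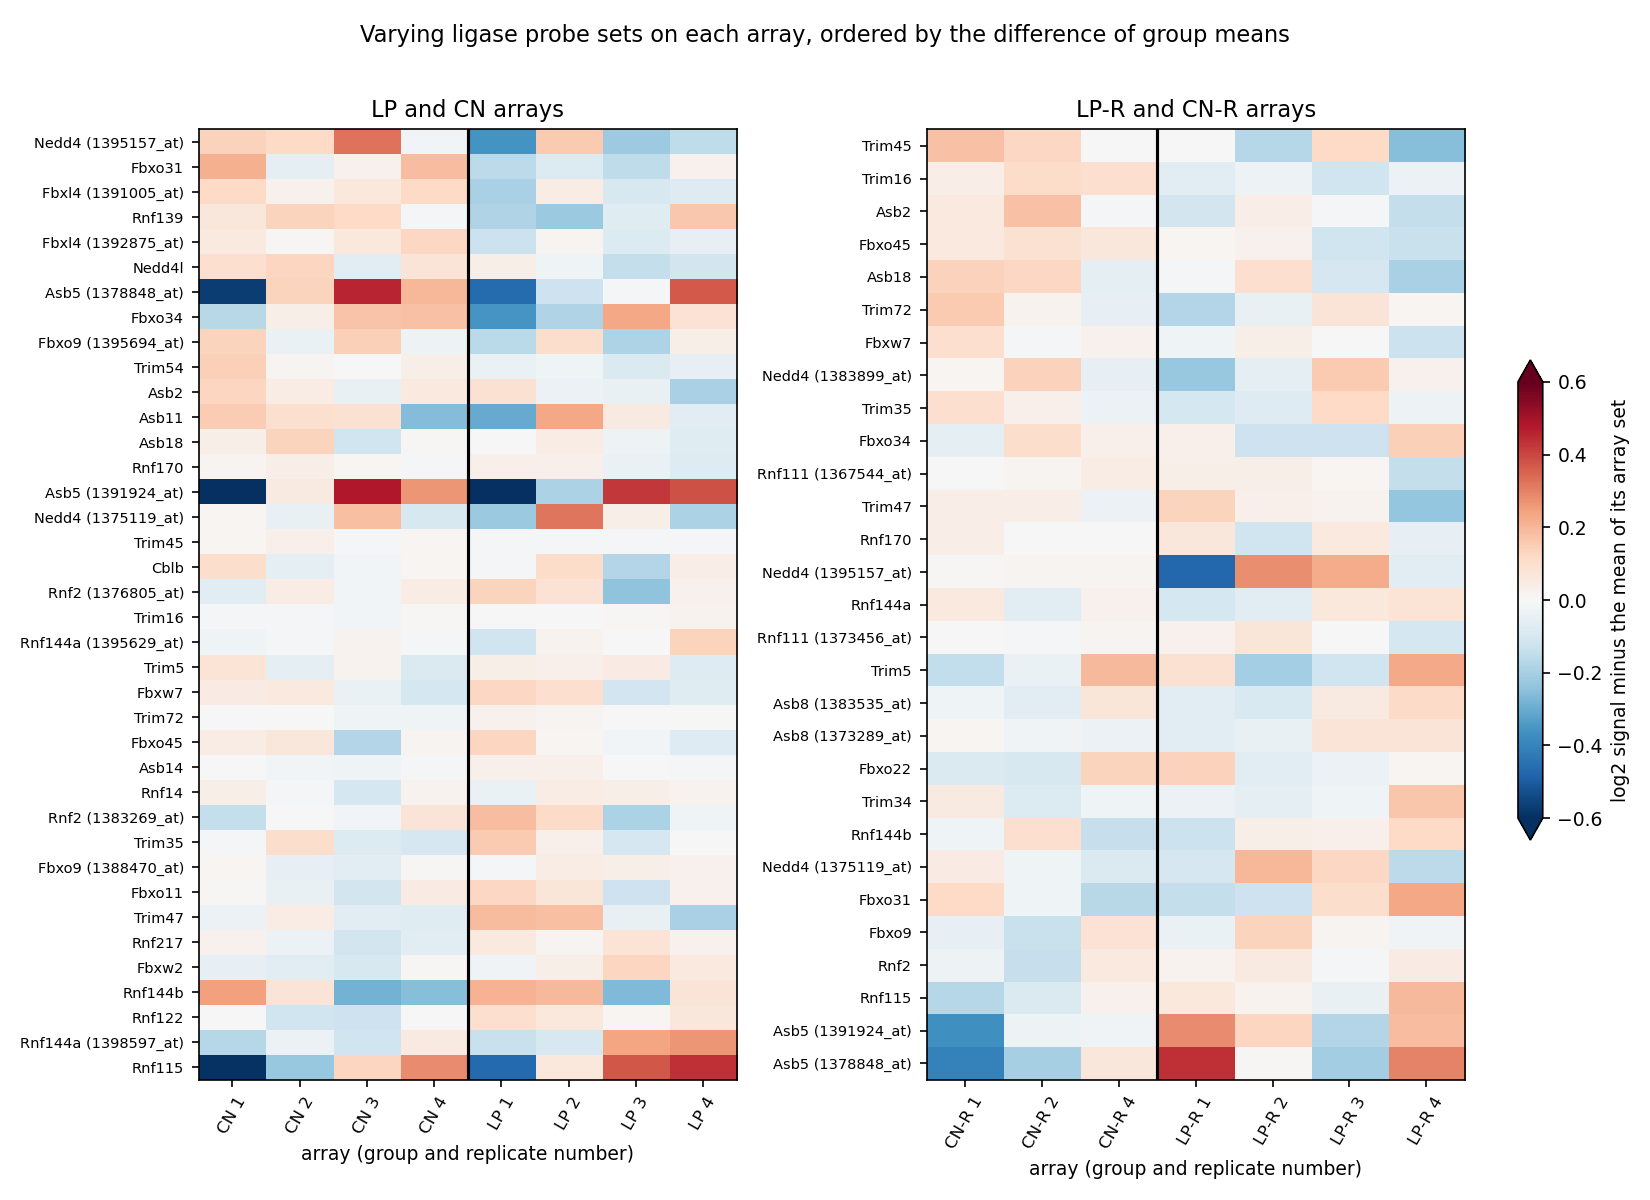
Colour gives the log2 signal of each varying ligase probe set (rows) on each array (columns), minus its mean over the arrays of its set, with rows ordered by the difference of group means and colours ending at -0.6 and 0.6. In the early arrays (left), Asb5 and Rnf115 are low in replicate 1 of both CN and LP, and the rows at the top and bottom are the ones with unequal group means.

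Among the Trim genes, 7 of 46 probe sets varied (15.2%, beside 12.8% of all), and 1 was called lower and 0 higher (1.6% and 1.67% of all). Trim54, also named MuRF3, a relative of Trim63 bound to sarcomeres and microtubules, read 11.92, 11.80, 11.78 and 11.82 in CN and 11.74, 11.75, 11.69 and 11.73 in LP. Every LP array lay below every CN array. The change was -0.10 (SE 0.03; pfp 0.032; exact p = 0.0286, the smallest that 4 against 4 arrays allow; limma adjusted p = 0.628), a 1.07-fold difference. Its call was lost when any of the 8 arrays was left out, with changes of -0.12 to -0.07. Trim72, which seals torn muscle membranes, changed by 0.02 (SE 0.01), and Trim5, Trim16, Trim35 and Trim47 by 0.01 to 0.07, none called. Trim45 changed by -0.02 (SE 0.01; exact p = 0.0571). Trim32 was nearly constant, and Trim21 and Trim55 had no probe set of their own.

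Of the Rnf genes, 11 of 104 probe sets varied (10.6%, beside 12.8% of all). Higher calls numbered 2 and lower calls 0 (1.67% and 1.6% of all). The LP mean exceeded the CN mean for 9 of the 11, beside 2290 of all 3974 varying probe sets. Rnf122, a RING ligase with a membrane span, read 7.60, 7.48, 7.47 and 7.59 in CN and 7.70, 7.66, 7.61 and 7.66 in LP, so that every LP array lay above every CN array. The change was 0.12 (SE 0.04; pfp 0.031; exact p = 0.0286; limma adjusted p = 0.62), and the call was lost when any of the 8 arrays was left out, with changes of 0.10 to 0.14. Rnf115, a ligase that binds the vesicle protein Rab7, read 9.56, 9.93, 10.28 and 10.44 in CN and 9.68, 10.21, 10.53 and 10.59 in LP. It overlapped widely, and the spread within each group exceeded the change of 0.20 (SE 0.29; pfp 0.028; exact p = 0.457). Replicate 1 was lowest in both groups, as for Asb5. Without CN 1, CN 2, LP 3 or LP 4 it was not called, and its change ran from 0.04 to 0.39 over the arrays left out. Rnf139, an endoplasmic reticulum ligase of the sterol pathway, was the nearest uncalled member, at a pfp of 0.0502: it read 9.48, 9.55, 9.54 and 9.40 in CN and 9.24, 9.19, 9.34 and 9.58 in LP, a change of -0.15 (SE 0.09). LP 4 was the highest of all 8 arrays and the other LP arrays the lowest. With a permutation distribution of its own for each direction, Rnf139 became the seventh lower call. Rnf217 changed by 0.09 (SE 0.03; exact p = 0.0857), and Rnf2, Rnf14, Rnf144a, Rnf144b and Rnf170 by -0.03 to 0.14, none called. Rnf213 was nearly constant in both array sets.

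All 4 varying probe sets of Nedd4, Nedd4l and Cblb had a lower mean in LP, beside 42.4% of all varying probe sets. Rank products called 2 of the 4, beside 25.6% of all varying probe sets. By limma, 0 of the 4 had an unadjusted p up to 0.05, and the groups overlapped for each. Nedd4, which ubiquitinates membrane receptors and their adaptors, has 6 probe sets, of which 2 varied. Probe set 1395157_at read 9.10, 9.08, 9.29 and 8.94 in CN and 8.60, 9.12, 8.74 and 8.81 in LP, and LP 1, LP 3 and LP 4 lay below every CN array. The change was -0.28 (SE 0.13; pfp 0.013; exact p = 0.114), the widest of all members, and the call was lost without CN 3, LP 1, LP 3 or LP 4, with changes of -0.38 to -0.21. The other, 1375119_at, read 11.56, 11.51, 11.73 and 11.46 in CN and 11.33, 11.87, 11.59 and 11.36 in LP, a change of -0.03 (SE 0.14), not called. LP 2 was the highest LP array in both. Nedd4l, known for removing the epithelial sodium channel from the membrane, read 7.76, 7.79, 7.59 and 7.73 in CN and 7.69, 7.63, 7.51 and 7.54 in LP, a change of -0.12 (SE 0.06; pfp 0.041; exact p = 0.0857). CN 3 lay within the LP range, and the call held only without CN 3 and was lost without any other array, with changes of -0.16 to -0.10. Cblb, a RING ligase of insulin receptor substrates in unloaded muscle, changed by -0.02 (SE 0.07), and Stub1, the co-chaperone CHIP, was nearly constant. Asb5, Fbxl4, Fbxo31, Nedd4 and Nedd4l are in the study's list of protein catabolism genes, which was chosen on these arrays, so that list is not independent evidence of their direction.

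**Figure D3:**
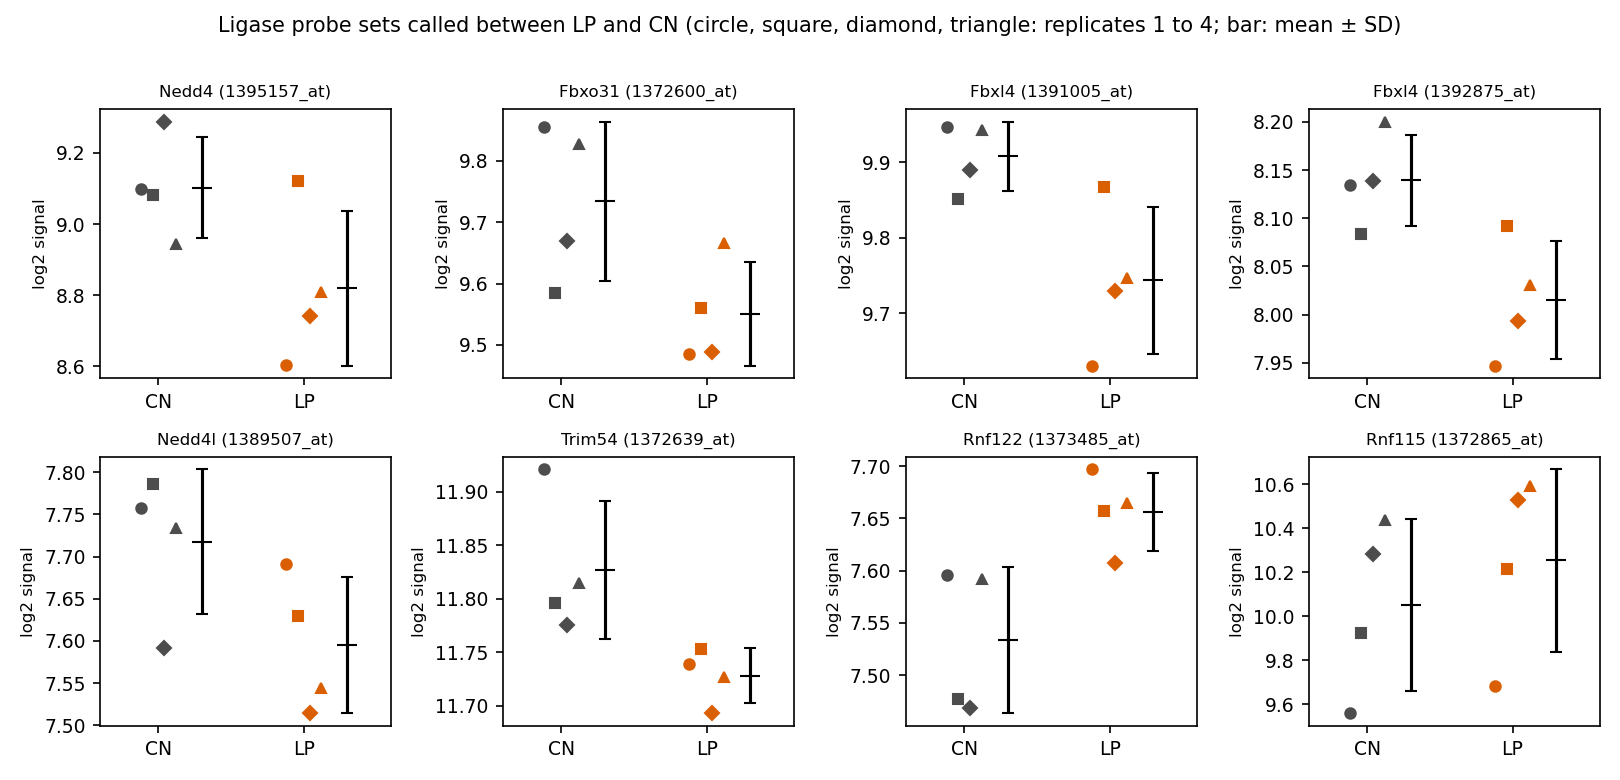
Log2 signal on each array for the 8 ligase probe sets called between LP and CN, ordered by the change, with replicate numbers 1 to 4 as circle, square, diamond and triangle and bars for the mean ± SD (n = 4 each). The groups are apart for Trim54 and Rnf122 and overlap for the other 6, most widely for Rnf115, which runs from 9.56 to 10.59.

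Between LP-R and CN-R, 29 of the 250 ligase probe sets, of 24 genes, varied (11.6%, against 9.99% of all). Rank products called 2, both of Asb5 and both higher in LP-R, and 0 lower. That is 0.8% of the members, beside 0.59% of all probe sets in either direction, 0.171% higher and 0.422% lower. Of the varying probe sets it is 6.9%, beside 5.9% of all. The median change of the 29 was -0.01 on the log2 scale, beside -0.02 over all varying probe sets, with 12 means higher in LP-R and 17 lower. Centred on the median of the varying probe sets, 8 of the 29 were lower. By limma, 0 passed an adjusted p of 0.05 and 2 of the 29 (6.9%) had an unadjusted p up to 0.05, beside 3.65% of all varying probe sets. The groups did not overlap for the same 2 probe sets, Trim16 and Fbxo45 (6.9%, beside 3.84%), both lower in LP-R. With that centring, the groups overlapped for both.

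Asb5 probe set 1378848_at read 9.28, 9.49 and 9.76 in CN-R 1, 2 and 4 and 10.13, 9.70, 9.48 and 9.99 in LP-R 1 to 4, a change of 0.31 (SE 0.21; pfp 0.031; exact p = 0.229), 1.24-fold higher. LP-R 1 and LP-R 4 lay above all CN-R arrays, and LP-R 2 and LP-R 3 lay within their range. Probe set 1391924_at read 9.19, 9.53 and 9.54 in CN-R and 9.84, 9.69, 9.38 and 9.75 in LP-R, a change of 0.25 (SE 0.15; pfp 0.033; exact p = 0.171), with LP-R 3 alone within the range of CN-R. By the exact test, neither change was rare among all splits of the arrays (p = 0.229 and 0.171). The first call was lost without CN-R 1, 2 or 4 or LP-R 1 or 4 (changes of 0.20 to 0.44), and the second without any array but LP-R 3 (0.13 to 0.34). With CN-R replicate 4 placed in LP-R, as its treatment field has it, neither was called (0.42 and 0.28). Among the other Asb genes, Asb2 changed by -0.13 (SE 0.07) and Asb18 by -0.12 (SE 0.09), and both Asb8 probe sets, which did not vary in the early arrays, by 0.01 and 0.03, none called.

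Trim16, which gathers the autophagy machinery at damaged lysosomes, read 8.62, 8.70 and 8.69 in CN-R and 8.52, 8.55, 8.47 and 8.55 in LP-R. Every LP-R array lay below every CN-R array. The change was -0.15 (SE 0.03; exact p = 0.0286, the smallest that 3 against 4 arrays allow; unadjusted limma p = 0.0032, adjusted p = 0.969), a 1.11-fold difference, with a pfp of 0.062, just outside the threshold. Centred on the median, the change was -0.09, and with CN-R 4 in LP-R it was -0.105. Trim45 changed by -0.18 (SE 0.11; pfp 0.063), and 6 of the 7 varying Trim probe sets had a lower mean in LP-R, beside 66% of all varying probe sets. Centred on the median, 3 of the 7 did. As deposited, Trim72 changed by -0.07 (SE 0.08) and Trim35 by -0.06 (SE 0.07).

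Fbxo45, which forms a neuronal ligase with the RING protein Mycbp2, read 8.80, 8.84 and 8.81 in CN-R and 8.75, 8.77, 8.62 and 8.61 in LP-R. All LP-R arrays lay below CN-R, by as little as 0.03 between nearest arrays, and the change was -0.13 (SE 0.05; pfp 0.073; exact p = 0.0857; unadjusted limma p = 0.044). No Fbxl probe set varied, Fbxl4 included. Fbxo31 changed by 0.04 (SE 0.13), Fbxo9 by 0.05 (SE 0.07) and Fbxw7 by -0.07 (SE 0.05), none called. Rnf115 changed by 0.13 (SE 0.08; pfp 0.123), and the other varying Rnf probe sets by -0.04 to 0.07. The 3 varying probe sets of Nedd4 changed by -0.06 (SE 0.11), 0.04 (SE 0.11) and -0.02 (SE 0.20). In the last, 1395157_at, the CN-R arrays lay between 9.45 and 9.47 while LP-R 1 read 8.98 and LP-R 2 read 9.73. Nedd4l, Cblb, Trim54 and Rnf122 were nearly constant in the late arrays, so they gave no comparison there.

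**Figure D4:**
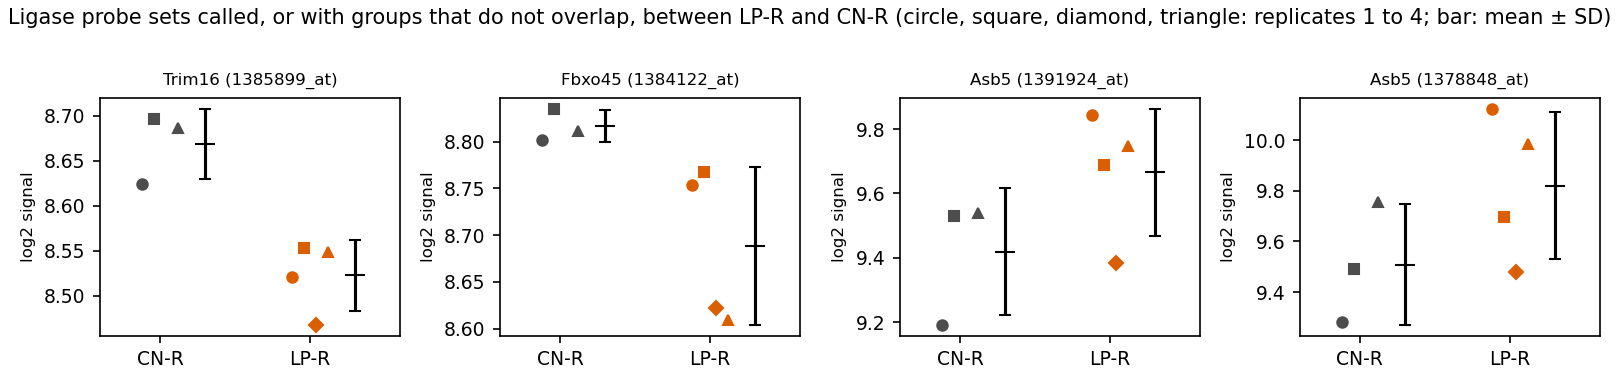
Log2 signal on each array for the 4 ligase probe sets that were called or whose groups did not overlap between LP-R (n = 4) and CN-R (n = 3), with bars for the mean ± SD. Trim16 and Fbxo45 are lower on every LP-R array, by 0.15 and 0.13 in the mean, and in both Asb5 panels LP-R 3 sits among the CN-R arrays.

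The changes of LP and LP-R were set side by side for the 22 ligase probe sets, of 20 genes, that varied in both array sets. As deposited, they ran the same way for 9, of which 3 were higher in both and 6 lower in both, and opposite ways for 13. Of all probe sets that varied in both array sets, 50.3% ran the same way. By an exact test over all 2450 splits within the array sets, 0 differed after adjustment over the 2073 probe sets that varied in both, and the smallest adjusted p was 0.508. Trim16 alone among the members had an unadjusted p up to 0.05 (p = 0.0012, exact), with changes of 0.01 in LP and -0.15 in LP-R. Centred on the median, this p was 0.08. Of all 2073 probe sets, 7.43% had an unadjusted p up to 0.05. For Asb5 the changes were -0.11 and 0.31 in 1 probe set and -0.03 and 0.25 in the other (exact p = 0.229 and 0.487 for the difference). For Fbxo31 they were -0.18 and 0.04 (exact p = 0.147), and for Nedd4 1395157_at -0.28 and -0.02 (exact p = 0.313). Rnf115 was higher in both, by 0.20 and 0.13, and Asb2 lower in both, by -0.09 and -0.13.

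**Figure D5:**
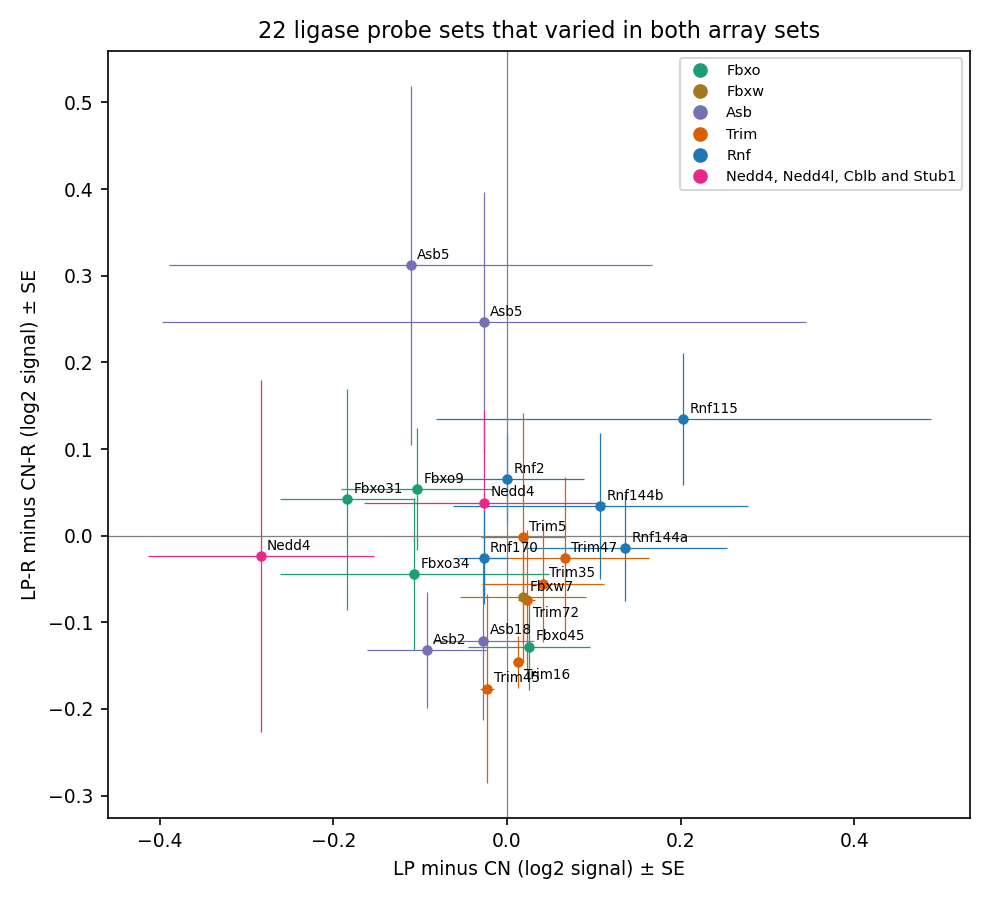
Each point is 1 of the 22 ligase probe sets that varied in both array sets, with the LP minus CN change on the x axis and the LP-R minus CN-R change on the y axis, both in log2 signal with their SE. The points lie on all sides of 0, 9 of them with the same sign on both axes, and Asb5 stands highest on the y axis at 0.31 and 0.25.

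Ligase genes outside the families were read from 4 lists, beside 1.67% of all probe sets called higher in LP and 1.6% lower. Of the cullins, their adaptors and the NEDD8 machinery that switches cullins on, 52 probe sets were measured and 1 was called in LP: Dcun1d2, a NEDD8 ligase, rose by 0.16 (SE 0.04; pfp 0.020). Of 38 probe sets of other HECT and Nedd4-family genes, 4 were called, all lower: N4bp1, a partner and inhibitor of HECT ligases of the Nedd4 family, by -0.32 (SE 0.15), the giant HECT protein Herc1 in both of its called probe sets by -0.30 (SE 0.15) and -0.17 (SE 0.09), and Smurf2, which acts on TGF-beta receptors and Smads, by -0.23 (SE 0.12). Of 65 probe sets of other RING and U-box genes, Mdm4, an inhibitor of p53, rose by 0.17 (SE 0.07), and Xiap, an inhibitor of caspases, and Traf6, a ligase of K63-linked chains, fell by 0.17 (SE 0.10) and 0.13 (SE 0.06) on the log2 scale. Of 12 probe sets of F-box genes with other symbols, such as Skp2 and Btrc, 0 were called. The 8 calls of the 4 lists became 0 on the varying probe sets alone, and leaving out 1 array left 1 without CN 3 or LP 3, 3 without CN 1, CN 2 or LP 1, 4 without LP 4 and 6 without CN 4 or LP 2. The shares of all probe sets called under these settings are not given here. None of the 4 lists had a call in LP-R, where 0.59% of all probe sets were called in either direction. By limma, 0 of their probe sets passed an adjusted p of 0.05 in either comparison. In LP, the 4 calls among the HECT and Nedd4-family genes had unadjusted limma p of 0.074 to 0.107.

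Markers of other cells were read beside these changes. Of all varying probe sets, rank products called 25.6% in LP and 5.9% in LP-R, in either direction. In LP, the mean log2 signal of the 13 varying endothelial probe sets was 8.16 to 8.25 in CN and 8.29 to 8.39 in LP, without overlap, and 6 were called higher, among them Kdr, and 1 lower. The 14 varying interferon-induced probe sets ran from 7.60 to 7.67 in CN and from 7.71 to 7.79 in LP, and 9 were called higher and 1 lower. The 15 varying slow fibre probe sets overlapped, at 11.41 to 11.59 in CN and 11.22 to 11.58 in LP. In LP-R, 8 of 19 varying slow fibre probe sets were called lower, Myh7 and Tnni1 among them, with means of 10.42 to 10.59 in CN-R and 10.29 to 10.49 in LP-R. The 5 varying Schwann and nerve probe sets barely missed overlap in their mean, at 7.496 to 7.627 in CN-R and 7.416 to 7.495 in LP-R. All 5 had a lower mean in LP-R, as did all 10 fibroblast probe sets (10.05 to 10.28 and 9.92 to 10.22). So did all 5 adipocyte probe sets (7.04 to 7.37 and 7.01 to 7.15), of which Cfd was called, and all 3 of smooth muscle and pericytes. Of all varying probe sets, 66% had a lower mean in LP-R, and these marker values were not centred. The leukocyte marker Lyz2 was called higher, while the mean of the 1 other varying leukocyte probe set was lower. The erythroid marker Hbb, the single varying probe set of its list, was called lower. Its groups overlapped, at 11.43 to 12.14 in CN-R and 11.05 to 11.62 in LP-R. The part of these markers in the ligase changes, the lower signals of Trim16 and Fbxo45 in LP-R included, was not tested.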

How the data were processed

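Total RNA of the gastrocnemius was hybridized to Affymetrix rat genome arrays, 1 for each of 15 rats. The authors made the deposited log2 signals with FARMS in R, with CN and LP apart from CN-R and LP-R: of 26041 probe sets nearly constant in both sets, 94.7% differ between the sets by over 0.01. The values were used as deposited, and with 3 or 4 rats a group the number of arrays sets the precision. After 57 control probe sets were left out, 31042 were tested. Symbols came from GEO's platform annotation, and all 250 member probe sets matched RefSeq by gene ID with the same symbol. The members, lists and tests were chosen with earlier results of these data known.

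Rank products, the study's method, used every pair of a restricted and a control array over all probe sets, with 100 permutations within arrays (seed 1) pooled over both directions, and a call needed a pfp of at most 0.05. They ran in Python 3.11.15 (pandas 2.3.3, numpy 2.4.6, scipy 1.17.1). limma 3.58.1 in R 4.3.3 was fitted to each comparison with Benjamini-Hochberg adjustment over all probe sets. Both were run on simulated data with known changes, and the outcome is not given here. limma was set beside rank products because earlier work on these data found that rank products called many probe sets where nothing was changed. Exact permutation tests were two-sided over all splits of the arrays and not adjusted, except in the comparison of changes. A change is the restricted group's mean log2 signal less that of its control group, given with its SE. Named were members called, members without overlap and a fixed list of muscle ligases, with Rnf139, Fbxw2, Trim45, Rnf217 and the further members of each family named after their values were seen. Probe sets of 1 gene come from the same rats. Alternatives were limma, another prior, array weights, a replicate block, quantile normalization, median centring, other filters, CN-R replicate 4 placed in LP-R, and each array left out in turn. Separate permutation distributions for each direction and limma on varying probe sets alone were added after the values were seen. Promoter windows came from RefSeq (GRCr8), matched by symbol, and Rnf115 and Rnf122 had no entry. No methylation arrays were analysed here.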

Additional observations from a re-analysis of the deposited data

Results flagged for a closer look

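Among 48 groups of 4 arrays of the named ligase probe sets, 1 held an array apart from the rest, where chance gives about 1 group in 20. For Asb11, CN replicate 4 read 9.08 and the other CN arrays 9.43 to 9.49, a gap of 0.855 of the whole range.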

How the results depend on the processing

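With 3 or 4 rats a group, no ligase change reached an adjusted p of 0.05 by limma under any of the settings run, with any array left out included, and the difference between LP and LP-R did so under none of its 4 settings. Quantile normalization and median centring left 2 members called higher in LP and gave 7 and 6 lower, and both left 2 called higher in LP-R.

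Rank products on the varying probe sets alone called 0 members higher and 0 lower in LP, 0 of the other ligases and cullins in LP (8 as reported) and 0 members higher in LP-R. limma in place of rank products gave 0 in each. Without the dimmest 25% of probe sets, 1 was called higher and 3 lower in LP and 1 higher in LP-R. With CN-R replicate 4 as LP-R, 0 were called higher in LP-R and 7 groups did not overlap. Centring on the median left 0 groups without overlap in LP-R and moved the median member change there to 0.0414. Over probe sets with an SD over 0.05 the median change in LP was -0.00878. Leaving out each array in turn gave 0 to 1 higher and 1 to 4 lower calls in LP, 0 to 2 higher and 0 to 1 lower in LP-R, 1 to 6 other ligase calls in LP, 2 to 6 and 2 to 9 groups without overlap, and median changes of -0.0064 to 0.0159 in LP and -0.0241 to -0.00861 in LP-R. Fewer arrays make fewer pairs and a lack of overlap more frequent. Shares over all probe sets are not given for the rank product and overlap counts under the settings above. These counts are therefore not set against a background. No called change reversed its sign under any setting run.

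Replicate numbers were checked as pairs: the deviations of same-numbered arrays correlated by 0.551, -0.0309, 0.165 and 0.401 in LP and CN and by 0.0441, 0.186 and 0.215 in LP-R and CN-R, so the numbers were not taken to pair rats. Over the varying members alone these were 0.762, -0.0717, 0.607 and 0.591, and -0.519, 0.151 and 0.367, and not every array correlated best with its own number. With a replicate block over same-numbered pairs, rank products called 5 members higher and 5 lower in LP and 2 higher and 1 lower in LP-R, and the limma fit with the block called 0. The shares of all probe sets that rank products called with the block are not given here. Both Fbxl4 calls were lost (pfp 0.0575 and 0.101) and Fbxw2, Rnf217 and Rnf144a (higher) and Rnf139 (lower) were added in LP, and Trim45 (lower) in LP-R. Rnf115 was higher in LP in all 4 same-numbered pairs, by 0.125 to 0.289 (SE with the block 0.038; limma adjusted p = 0.643).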
